A study of Mus musculus with 73 samples.

Results

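CAF-1 (chromatin assembly factor 1) places newly made histone H3-H4 on DNA behind the replication fork. Its 4 subunit genes in mouse are described here across 8 RNA-seq libraries of early embryos. They are Chaf1a, Chaf1b, Rbbp4 and Rbbp7, found by symbol as 4 of the 25220 genes in the expression table. The genes were chosen by name and not by their values. Their choice, and that of the gene lists used beside them, was made with earlier results of these data known.

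The embryos had a hybrid C57BL/6 / C3H background and were kept in KSOM, an embryo culture medium. The study deals with histone H3.3, and the RNA-seq holds 3 groups. EGFP 8-cell embryos (3 libraries) and EGFP blastocysts (2 libraries) are named for a green fluorescent protein and served as controls. p150DN 8-cell embryos (3 libraries) are named for p150, the product of Chaf1a, in what is read here as a dominant-negative form. The labels give neither the p150DN sequence, nor how p150DN or EGFP was introduced, nor how many embryos were pooled per library. Nor do they state whether replicates were independent cultures or litters, and the p-values below then cover the spread among these libraries alone, which can be technical.

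Chaf1a encodes p150, the large subunit that binds the replication clamp PCNA and heterochromatin protein 1. Chaf1b encodes p60, a WD-repeat subunit that binds the chaperone ASF1. Rbbp4 encodes the small WD-repeat subunit, which binds histone H4, and Rbbp7 encodes its close relative. RBBP4 and RBBP7 also belong to the deacetylase complexes NuRD and SIN3 and to the Polycomb complex PRC2. RBBP4 further belongs to the cell-cycle complex MuvB, and RBBP7 works with the histone acetyltransferase HAT1. CAF-1 deposits the replication-coupled histones H3.1 and H3.2, whereas other chaperones place H3.3, and loss of p150 stops mouse embryos before implantation.

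All 4 genes matched the RefSeq tables of GRCm38.p6, the assembly of mm10. Chaf1a lies on the plus strand of chromosome 17 (56040416 to 56068026) and Chaf1b on the plus strand of chromosome 16 (93883900 to 93906115). Rbbp4 lies on the minus strand of chromosome 4 (129307100 to 129335370) and Rbbp7 on the plus strand of chromosome X (162760372 to 162779090). The 250 bases before each annotated start are shown because 3 of the 4 promoters held letters of the type bound by E2F, the factor family of S-phase genes, and because the genes moved by different amounts. Each sequence is from RefSeq, 5′ to 3′ on the gene's strand, and the intervals are chr17:56040166-56040415 (plus), chr16:93883651-93883900 (plus), chr4:129335371-129335620 (minus) and chrX:162760122-162760371 (plus). The promoter table placed the Chaf1b start 1 base after that of the gene table. Capitals mark matches to the 7-letter E2F-type motifs, the CCAAT box and the E-box CACGTG on either strand.
Chaf1a: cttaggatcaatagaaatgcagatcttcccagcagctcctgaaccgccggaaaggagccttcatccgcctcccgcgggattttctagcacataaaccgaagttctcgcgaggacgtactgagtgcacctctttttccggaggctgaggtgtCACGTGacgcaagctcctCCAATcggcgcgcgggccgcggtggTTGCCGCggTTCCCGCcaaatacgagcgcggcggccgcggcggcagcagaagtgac
Chaf1b: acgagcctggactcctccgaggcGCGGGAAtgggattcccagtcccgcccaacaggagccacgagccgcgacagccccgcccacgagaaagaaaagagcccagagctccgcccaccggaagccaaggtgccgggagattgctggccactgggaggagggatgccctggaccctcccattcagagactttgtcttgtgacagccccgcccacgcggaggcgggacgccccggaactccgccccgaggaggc
Rbbp4: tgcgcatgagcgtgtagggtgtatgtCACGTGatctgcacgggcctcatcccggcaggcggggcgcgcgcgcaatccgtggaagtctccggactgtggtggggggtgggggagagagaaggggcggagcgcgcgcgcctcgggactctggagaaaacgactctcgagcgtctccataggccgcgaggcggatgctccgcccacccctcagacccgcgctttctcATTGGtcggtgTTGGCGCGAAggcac
Rbbp7: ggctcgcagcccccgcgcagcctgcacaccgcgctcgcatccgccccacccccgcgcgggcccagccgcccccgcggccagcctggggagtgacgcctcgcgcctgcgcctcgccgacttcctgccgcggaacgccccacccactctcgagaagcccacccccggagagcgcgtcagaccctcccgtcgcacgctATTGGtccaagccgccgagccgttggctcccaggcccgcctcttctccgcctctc

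The motifs were chosen after the sequences had been seen, and a match is a description of letters and not of binding. The E2F-type set held TTCCCGC as its first form, then the second form TTCGCGC, the third form TTGCCGC and the last form TTGGCGC. The CCAAT box was searched as CCAAT, the E-box as CACGTG and the GC box as GGGCGG. Each was searched on both strands of the 300 bases from 250 before to 50 after the start. The Chaf1a promoter held a pair of E2F-type matches starting 47 and 56 bases before the start, a CCAAT box at 81 and an E-box at 99. The Rbbp4 promoter held TTGGCGC 15 bases before the start, overlapping TTCGCGC on the other strand at 12, with a CCAAT box at 26 and an E-box at 224. Chaf1b had an E2F-type match 227 bases before the start, another after the start outside the printed bases, and 5 GC boxes upstream. Rbbp7 had no E2F-type match in this window, a CCAAT box 55 bases before the start and another that spanned the start.

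These letters were compared with all promoters of the same length, which were not matched for G or C content. As the motifs were chosen on these 4 sequences, the shares are a description only. A 7-letter E2F-type match stood in 3 of the 4 promoters and in 9.57% of 32851 promoters, and the longer forms with 1 more T in front (TTTCCCGC and its 3 counterparts) stood in 0 of the 4 and in 2.26%. CCAAT stood in 3 of the 4 and in 37.4% of all, CACGTG in 2 of the 4 and in 7.15%, and GGGCGG in 4 of the 4 and in 35.7%. The printed bases were 61.2% G or C in Chaf1a, 68.4% in Chaf1b, 67.6% in Rbbp4 and 76.4% in Rbbp7, against a median of 52.4% over all promoters. All 4 values lay above that median.

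**Figure D1:**
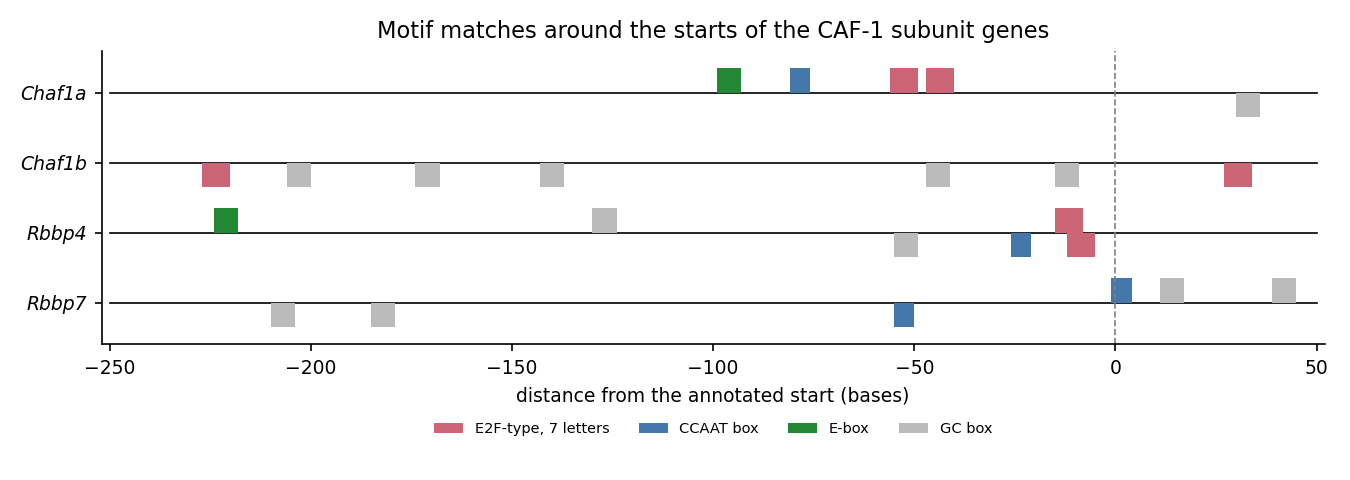
Motif matches from 250 bases before to 50 bases after the annotated start of each gene (x axis, bases). Blocks above a line are on the gene's strand and blocks below it on the other strand; E2F-type matches stand in Chaf1a, Chaf1b and Rbbp4, and GC boxes in all 4 genes.

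Values are FPKM, the fragments counted on a gene per kilobase of its length, relative to each library's total of counted fragments. Between 16578221 and 22488477 fragments were counted per library. Replicates 2 and 3 of p150DN stood apart in detecting 20465 and 21282 genes, against 17310 to 18991 in the other 6 libraries, so results for p150DN are also given with replicate 1 as the only p150DN library, an alternative chosen after seeing the data. Markers of the labelled stages were present. The summed level of 13 blastocyst markers was 334 to 411 FPKM in EGFP 8-cell and 1552 to 1624 FPKM in blastocyst libraries. It was 559 to 827 FPKM in p150DN 8-cell libraries. In EGFP 8-cell libraries the sum was mostly Tead4, Tfap2c and Gata6. Tead4 was at 138 to 151 FPKM there. It was lower in p150DN (52.9 to 69.1 FPKM) and blastocyst libraries (53.3 to 57.4 FPKM). Cdx2, Gata3, Krt8 and Krt18 were at 2.17 to 10.1 FPKM in EGFP 8-cell and 109 to 435 FPKM in blastocyst libraries. Their p150DN values lay between these. Of 15 markers of cumulus and granulosa cells, the somatic cells around the egg, only Amhr2 reached 1 FPKM in any library. The number of them above 0 was 6, 10 and 7 in EGFP 8-cell, 7, 13 and 13 in p150DN, and 11 and 10 in blastocyst replicates.

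In the EGFP libraries the 4 genes kept 1 order of level, with Rbbp7 above Rbbp4, Rbbp4 above Chaf1a, and Chaf1a above Chaf1b. No neighbours in that order overlapped among the EGFP 8-cell libraries or among the blastocyst libraries. Rbbp7 ranked between 162 and 423 from the top of each library's genes in all 8 libraries, and Rbbp4 between 1049 and 1605. Chaf1b ranked between 3246 and 3754. Chaf1a ranked 2595 to 2746 in EGFP 8-cell and 3045 to 3053 in blastocyst libraries, but 203 to 409 in p150DN libraries.

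Chaf1a, the gene of p150, was examined first because it checks the labels. It stood at 27.7, 30.2 and 28.8 FPKM in EGFP 8-cell, at 165, 254 and 238 FPKM in p150DN 8-cell, and at 26.5 and 27.2 FPKM in blastocyst replicates. Every p150DN library lay above every other library, and p150DN replicate 1 was the lowest of its group. The p150DN values rested on 11154, 16441 and 13051 counted fragments and the EGFP values on 1700 to 2021. These counts are of a gene of 3308 bases, and endogenous transcripts cannot be told apart in them from any that an introduced p150 copy gave.

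Chaf1b, the gene of p60, was nearly level across the study. It stood at 18.7, 22.3 and 20.0 FPKM in EGFP 8-cell, at 23.2, 22.4 and 22.2 FPKM in p150DN 8-cell, and at 20.5 and 23.3 FPKM in blastocyst replicates. The 3 groups overlapped. With 704 to 1003 fragments, counting error alone was up to 3.77% of a value, the largest among the 4 genes.

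Rbbp4 stood at 52.6, 53.6 and 57.7 FPKM in EGFP 8-cell, at 60.8, 62.1 and 65.9 FPKM in p150DN 8-cell, and at 75.0 and 77.3 FPKM in blastocyst replicates. The 3 groups did not overlap, and p150DN 8-cell embryos lay between the EGFP stages. Its coefficient of variation within a group was 2.17% to 4.94%.

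Rbbp7 stood at 181, 165 and 165 FPKM in EGFP 8-cell, at 211, 298 and 259 FPKM in p150DN 8-cell, and at 229 and 295 FPKM in blastocyst replicates. Each p150DN and each blastocyst library lay above each EGFP 8-cell library, while the p150DN and blastocyst ranges overlapped. Replicates spread widely in the groups with more of it, with a coefficient of variation of 17.1% in p150DN and 17.6% in blastocysts against 5.45% in EGFP 8-cell embryos. Counting error was at most 1.18%, well under this spread.

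**Figure D2:**
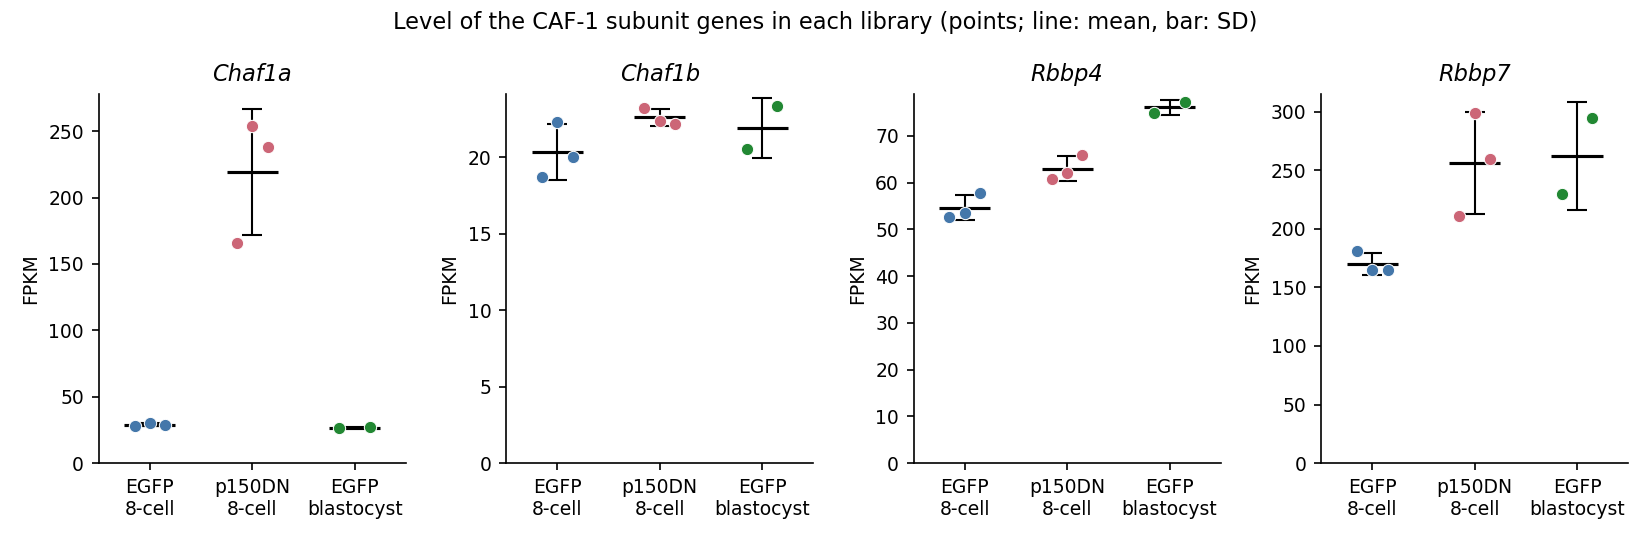
FPKM (y axis, each panel on its own scale from 0) of the 4 subunit genes in each library, by group (x axis); points are libraries, lines means and bars SD (n = 3, 3 and 2). Chaf1a was high only in the p150DN libraries (165 to 254 FPKM), whereas Rbbp4 and Rbbp7 were higher in blastocysts and Chaf1b overlapped across groups.

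The first comparison asked which subunit genes differed between p150DN and EGFP 8-cell embryos. Chaf1a and Rbbp7 rose and the other two did not pass the test. Chaf1a averaged 219 ± 47.2 FPKM (SD, n = 3) with p150DN and 28.9 ± 1.24 FPKM (SD, n = 3) with EGFP, a 7.59-fold difference of means. Rbbp7 was at 256 ± 43.8 against 170 ± 9.28 FPKM, a 1.5-fold difference. Rbbp4 was at 63.0 ± 2.68 against 54.6 ± 2.70 FPKM, and Chaf1b at 22.6 ± 0.527 against 20.4 ± 1.83 FPKM.

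On the log2(FPKM + 1) scale the change of Chaf1a was 2.86 ± 0.17 (SE; 95% interval 2.48 to 3.24; limma, adjusted p = 5.5e-05), larger than that of 99.6% of tested genes. The change of Rbbp7 was 0.57 ± 0.14 (0.25 to 0.89; limma, adjusted p = 0.0145). Rbbp4 had 0.20 ± 0.11 (-0.05 to 0.46; limma, adjusted p = 0.195) although its groups did not overlap, and Chaf1b had 0.15 ± 0.13 (-0.15 to 0.45; limma, adjusted p = 0.41). The interval of Chaf1b lies wholly below that of Chaf1a.

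These calls are read against the background. Of 11730 tested genes 34.3% passed in this comparison, 24.6% higher and 9.68% lower in p150DN, and 34.3% were higher with groups that did not overlap. Among the 4 genes 2 passed, both higher, and 3 were higher without overlap. Both counts include Chaf1a, whose p150DN values can hold transcripts of an introduced p150 copy. They are thus not counts of endogenous responses alone. The median log2 fold change of all genes was 0.19, and it moved to -0.06 with libraries scaled by the median of ratios and to -0.04 when they were quantile normalized. Relative to that median Chaf1a was at 2.67, Rbbp7 at 0.38, Rbbp4 at 0.01 and Chaf1b at -0.04. The split of called genes moved from 2887 higher and 1136 lower to 1709 and 2241 under median-of-ratios scaling, and to 1742 and 1881 under quantile normalization. The number called fell from 4023 to 2560 without EGFP 8-cell replicate 1, to 2238 without p150DN replicate 3 and to 2314 with p150DN replicate 1 only.

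The Chaf1a call held in each of 14 alternatives, with log2 fold changes of 2.48 to 3.05 and limma adjusted p up to 0.00329. The Rbbp7 call held in 11 of 14. It was lost under median-of-ratios scaling (0.28; limma, adjusted p = 0.178), without p150DN replicate 3 (0.56; limma, adjusted p = 0.0501) and with p150DN replicate 1 as the only p150DN library (0.31; limma, adjusted p = 0.154). Under median-of-ratios scaling Rbbp4 and Chaf1b turned to -0.09 and -0.13.

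The second comparison asked how the subunit genes differed between the EGFP stages, and it uses the same EGFP 8-cell libraries as the first. Rbbp4 and Rbbp7 were higher in blastocysts, and neither Chaf1a nor Chaf1b passed the test. Rbbp4 was at 76.1 ± 1.65 FPKM in blastocysts (SD, n = 2) and 54.6 ± 2.70 FPKM in 8-cell embryos (SD, n = 3), a 1.39-fold difference of means. Rbbp7 was at 262 ± 46.2 against 170 ± 9.28 FPKM, a 1.54-fold difference. Chaf1a was at 26.9 ± 0.442 against 28.9 ± 1.24 FPKM, with both blastocyst libraries below all 8-cell libraries, and Chaf1b at 21.9 ± 1.98 against 20.4 ± 1.83 FPKM. The share of all genes that were lower without overlap was not computed.

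The log2 fold changes were 0.47 ± 0.10 for Rbbp4 (SE; 95% interval 0.23 to 0.71; limma, adjusted p = 0.00537) and 0.61 ± 0.13 for Rbbp7 (0.30 to 0.92; limma, adjusted p = 0.00503). Chaf1a had -0.10 ± 0.11 (-0.36 to 0.16; limma, adjusted p = 0.449) and Chaf1b 0.10 ± 0.14 (-0.22 to 0.42; limma, adjusted p = 0.521). Of 12199 tested genes 67.5% passed, 42.6% higher and 24.9% lower in blastocysts, and 49.3% were higher without overlap. The 2 of 4 genes that passed are both higher and without overlap, a share close to this background. Called genes split into 5198 higher and 3038 lower, into 4229 and 3774 under median-of-ratios scaling and into 3935 and 3924 under quantile normalization, and 5459 were called without blastocyst replicate 2.

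All genes had a median log2 fold change of 0.28 between the stages, which became 0.07 under median-of-ratios scaling and 0.01 under quantile normalization. Relative to 0.28 Rbbp7 was at 0.33 and Rbbp4 at 0.19. Rbbp7 passed in each of 12 alternatives and Rbbp4 in 11, the exception being median-of-ratios scaling (0.25; limma, adjusted p = 0.0685). That scaling brought Chaf1a past the threshold as lower in blastocysts (-0.32; limma, adjusted p = 0.0319), and Chaf1b turned to -0.12. In such bulk libraries fewer cells with a transcript and less of it per cell cannot be told apart.

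**Figure D3:**
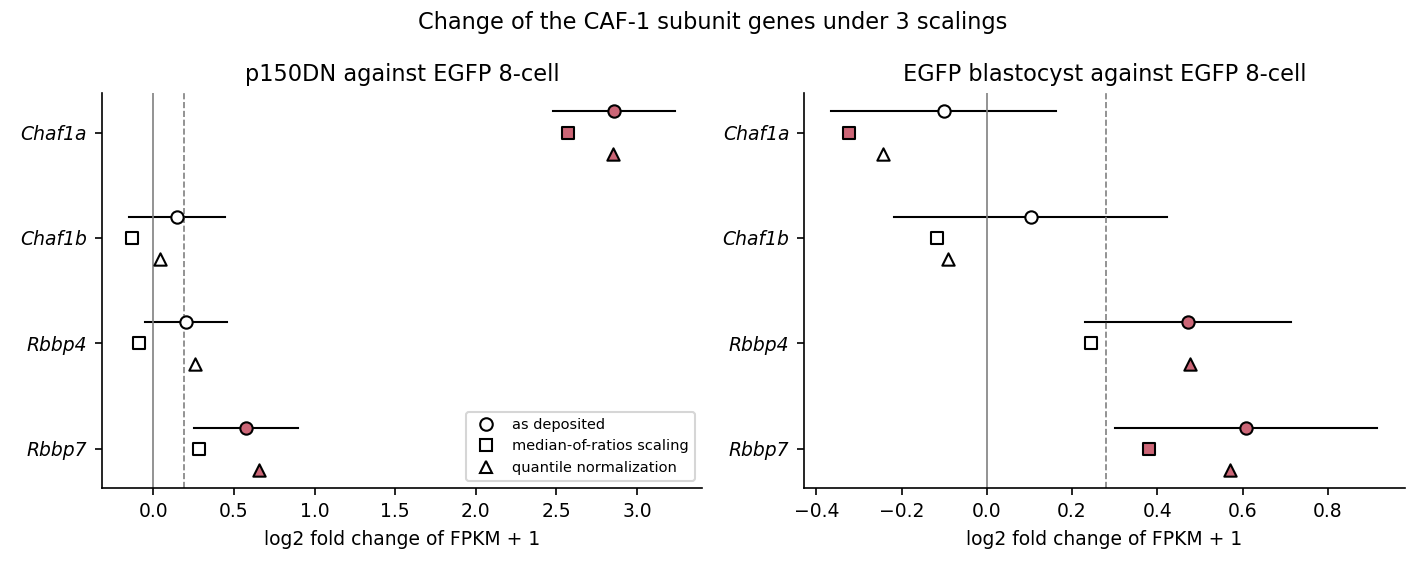
Log2 fold change of FPKM + 1 (x axis) of each subunit gene in both comparisons, from values as deposited (circles, with 95% intervals), median-of-ratios scaling (squares) and quantile normalization (triangles). Filled symbols passed limma at adjusted p below 0.05, the solid line is 0 and the dashed line the median of all genes as deposited (0.19 and 0.28); the axes differ between panels.

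Ratios within a library do not depend on how libraries are scaled to each other. FPKM is per length, so they compare levels of transcripts. In p150DN libraries the Chaf1a counts can include transcripts of an introduced p150 copy, whose sequence is not given, and are divided by 3308 bases. The ratio of Chaf1a to Chaf1b there is thus not one of endogenous transcripts alone. The ratio of Chaf1a to Chaf1b was 1.48, 1.35 and 1.44 in EGFP 8-cell, 7.14, 11.3 and 10.7 in p150DN and 1.29 and 1.17 in blastocyst replicates. In p150DN embryos it was 9.73 ± 2.27 (SD, n = 3) against 1.42 ± 0.0659 (n = 3), without overlap (exact permutation test, two-sided, p = 0.1, the smallest that 3 against 3 allows). In blastocysts it was 1.23 ± 0.0907 (n = 2), below every EGFP 8-cell library (exact permutation p = 0.2, the smallest that 2 against 3 allows). Neither comparison can reach 0.05 at these group sizes.

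The ratio of Rbbp7 to Rbbp4 was 3.44, 3.08 and 2.85 in EGFP 8-cell, 3.47, 4.80 and 3.93 in p150DN, and 3.06 and 3.81 in blastocyst replicates. The p150DN libraries lay above the EGFP 8-cell libraries (4.07 ± 0.676 against 3.12 ± 0.296, SD, n = 3 each; exact permutation p = 0.1), but replicate 1 by little. Blastocysts overlapped with 8-cell embryos (3.43 ± 0.532, SD, n = 2; exact permutation p = 0.6), and without blastocyst replicate 2 the log2 difference turned from 0.13 to -0.03. With p150DN replicate 1 only, the log2 difference of this ratio in p150DN was 0.16 in place of 0.37.

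The summed level of both WD-repeat histone binders, Rbbp4 plus Rbbp7, was 12.5, 9.80 and 11.1 times that of Chaf1b in EGFP 8-cell, 11.7, 16.1 and 14.6 times in p150DN and 14.8 and 15.9 times in blastocyst replicates. Blastocysts lay above 8-cell embryos (15.4 ± 0.793, SD, n = 2, against 11.1 ± 1.34, n = 3; exact permutation p = 0.2). The p150DN libraries overlapped with the EGFP 8-cell libraries (14.2 ± 2.23, SD, n = 3; exact permutation p = 0.2). With p150DN replicate 1 only, the log2 difference fell from 0.34 to 0.08. For these 3 ratios in 2 comparisons 6 tests were made, and none passed.

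**Figure D4:**
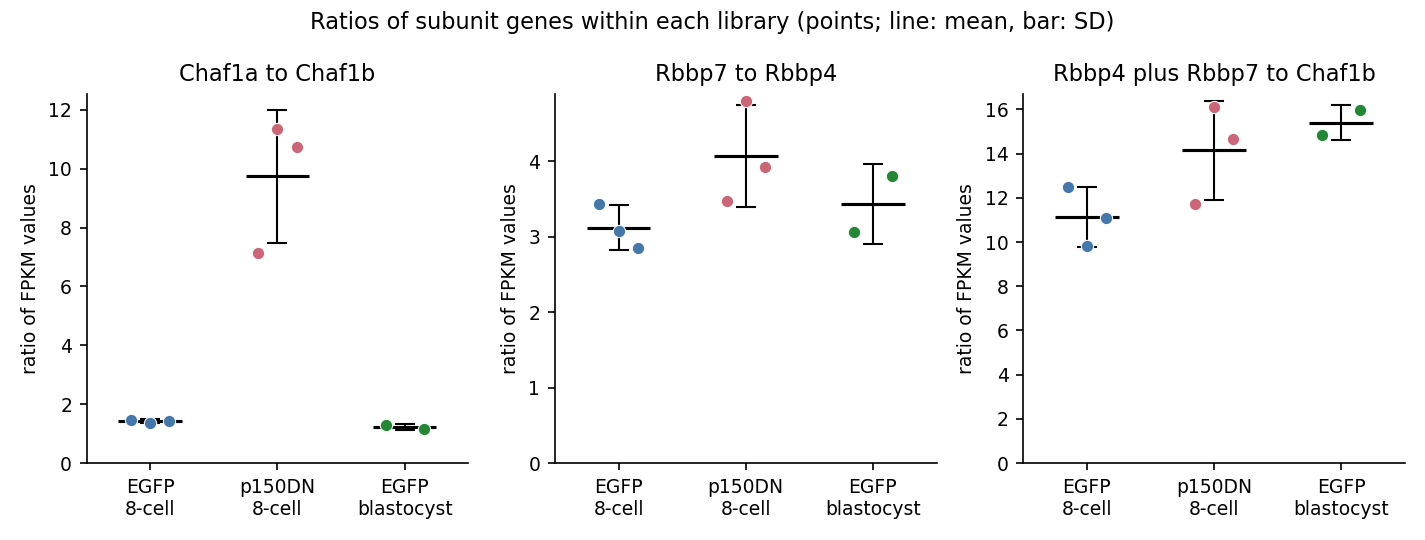
Ratios of FPKM values of subunit genes within each library (y axis, from 0), by group (x axis); points are libraries, lines means and bars SD (n = 3, 3 and 2). The ratio of Chaf1a to Chaf1b was 7.14 to 11.3 in p150DN libraries and 1.17 to 1.48 in the other 5. Chaf1a counts in p150DN libraries can include transcripts of an introduced p150 copy.

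Over the 8 libraries the log2 levels of Rbbp4 and Rbbp7 had the highest correlation among the 6 pairs of subunit genes (Pearson r = 0.74), and Chaf1a and Rbbp4 the lowest (0.02). The pair Chaf1a and Chaf1b had 0.49. The libraries fall into 3 groups, so these values describe differences between groups as much as within them. The correlation compares the shape of a pattern and not the size of its change, and the values below are the highest among 7140 genes. The patterns most like Chaf1a were those of Chchd2 (0.986), Zfp52 (0.985) and Impact (0.975). Means of EGFP 8-cell, p150DN and blastocyst libraries were 164, 235 and 166 FPKM for Chchd2. They were 2.70, 13.9 and 2.31 FPKM for Zfp52, and 11.4, 18.6 and 11.3 FPKM for Impact. Chaf1a counts in p150DN libraries can include transcripts of an introduced p150 copy. The patterns most like Rbbp4 were those of Sdhb (0.998) and Cs (0.998), which encode mitochondrial enzymes of the citric acid cycle, and Pxn (0.995). Rbbp7 was matched best by Ube2t (0.975), Dctn6 (0.963) and Dgcr8 (0.961), and Chaf1b by Ldha (0.965), Vps33b (0.943) and Tex30 (0.930).

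Genes that overlap a subunit gene on the other strand were examined because the strand setting of the counting is not given in the sources used here. The annotated span of Chaf1a overlaps Ubxn6 by 982 bases, that of Rbbp4 overlaps Sync by 2284 bases, and that of Rbbp7 overlaps Txlng by 174 bases. Sync fell from 35.4 ± 5.63 to 18.1 ± 1.19 FPKM with p150DN (SD, n = 3 each; -0.92 on the log2 scale; limma, adjusted p = 0.00277) and to 10.1 ± 1.22 FPKM in blastocysts (SD, n = 2; -1.71). Rbbp4 was higher in blastocysts, opposite to Sync. Txlng fell in blastocysts (-1.54; limma, adjusted p = 0.00011), where Rbbp7 rose, and was at -0.65 in p150DN embryos (limma, adjusted p = 0.0501). It passed there as lower in 7 alternatives, among them median-of-ratios scaling (-0.93), quantile normalization (-0.70) and p150DN replicate 1 only (-1.14; limma, adjusted p = 0.010). Ubxn6 was at 17.2 to 24.3 FPKM in all 8 libraries, while Chaf1a spanned 26.5 to 254 FPKM. Zbtb8os starts 161 bases from Rbbp4 in the opposite direction, and it rose in blastocysts from 1.55 ± 0.478 to 3.97 ± 0.464 FPKM (SD, n = 3 and 2; log2 fold change 0.98; limma, adjusted p = 0.00544). That call was lost under quantile normalization (0.59; limma, adjusted p = 0.0593) and without blastocyst replicate 2 (0.88; limma, adjusted p = 0.0587).

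Other genes of the subunits' pathways were taken from 8 lists of complex membership. Each list is given by its counts and its median, to be read against 24.6% higher, 9.68% lower and a median of 0.19 in p150DN embryos. The genes that bring CAF-1 to replicating chromatin had 7 of 17 higher and 3 lower, with a median of 0.38. Pcna, the sliding clamp that p150 binds, rose from 37.7 to 60.1 FPKM (log2 fold change 0.66; limma, adjusted p = 0.00452). Cbx1, a heterochromatin protein 1 gene, rose from 7.67 to 28.4 FPKM (1.70) and its relative Cbx5 from 26.8 to 37.3 FPKM (0.45; limma, adjusted p = 0.0422). Rfc3, a subunit of the clamp loader, rose (1.23), whereas Rfc1, its large subunit (-0.60), and Dbf4, the activator of the replication kinase CDC7 (-0.57), fell. The higher calls numbered 3 in place of 7 under median-of-ratios scaling, where Pcna (0.37; limma, adjusted p = 0.076) and Cbx5 (0.17; limma, adjusted p = 0.416) did not pass. With p150DN replicate 1 only, the log2 fold change of Cbx5 was 0.22 in place of 0.45. That of Rfc1, a lower gene, was then -0.48 in place of -0.60. Cbx5 also missed the threshold in 5 of the 6 fits that left out 1 library.

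The other chaperones of H3-H4 had 3 of 19 tested genes higher and 4 lower, with a median of -0.10. Asf1a and Asf1b, whose products hand H3-H4 to CAF-1, were at 30.6 against 14.4 FPKM (1.04; limma, adjusted p = 0.00133) and at 19.2 against 12.3 FPKM (0.60; limma, adjusted p = 0.0457). The Asf1b call was lost under median-of-ratios scaling (0.33; limma, adjusted p = 0.191), with p150DN replicate 1 only (0.33; limma, adjusted p = 0.388) and in 4 of the 6 fits that left out 1 library. Ubn1, a partner of the H3.3 chaperone HIRA, fell (-0.85), a call lost without EGFP 8-cell replicate 1 or 2 (limma, adjusted p = 0.052 and 0.058). Supt6, an elongation factor that binds H3-H4, fell from 124 to 73.3 FPKM (-0.75; limma, adjusted p = 0.00251). The lower calls numbered 7 under median-of-ratios scaling, 1 without EGFP 8-cell replicate 1, and 2 without EGFP 8-cell replicate 2 or without p150DN replicate 3. The higher calls numbered 1 under median-of-ratios scaling, with no filter, with p150DN replicate 1 only, and without EGFP 8-cell replicate 1, EGFP 8-cell replicate 3 or p150DN replicate 3.

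Hat1, which encodes the histone acetyltransferase that works with RBBP7, rose from 64.2 to 160 FPKM in p150DN embryos (log2 fold change 1.29; limma, adjusted p = 0.00043). Its list, with the remodeller NURF and the factors that load CENP-A, had 2 of 8 tested genes higher and 1 lower (median 0.06). Cenpa, the centromeric H3, rose from 33.4 to 50.7 FPKM (0.60), which did not pass under median-of-ratios scaling (0.31; limma, adjusted p = 0.126) or with p150DN replicate 1 only (limma, adjusted p = 0.081). Bptf, the large NURF subunit, fell (-0.56), a call lost without EGFP 8-cell replicate 1 (limma, adjusted p = 0.066), and the lower calls numbered 2 under median-of-ratios scaling.

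NuRD and SIN3 are the deacetylase complexes that hold RBBP4 and RBBP7. Of 13 NuRD genes 3 were higher, 3 were lower and 7 did not pass (median -0.06). The higher calls numbered 1 without EGFP 8-cell replicate 1, without p150DN replicate 3, under quantile normalization, with a filter of 5 FPKM and with no filter, and the lower calls numbered 5 under median-of-ratios scaling. Hdac2 rose from 60.3 to 103 FPKM (0.77; limma, adjusted p = 0.00342), while its partner Hdac1 stood at 136 against 142 FPKM (-0.06; limma, adjusted p = 0.67). Gatad2b (-0.99) and the remodeller Chd4 (-0.70) fell. Of 15 SIN3 genes 4 were higher, 3 were lower and 8 did not pass (median 0.22), with Sap18b at 0.83 and Sin3b at 0.80 against Brms1 at -0.78 and Suds3 at -0.74. The SIN3 list had 2 higher calls without EGFP 8-cell replicate 1 or without p150DN replicate 3. It had 1 higher call under median-of-ratios scaling, where Sin3b did not pass (0.53; limma, adjusted p = 0.060), and also 1 with p150DN replicate 1 only, where neither Sin3b (limma, adjusted p = 0.094) nor Brms1 (limma, adjusted p = 0.073) passed.

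PRC2 is the Polycomb complex and MuvB the cell-cycle complex that hold RBBP4. Of 11 tested PRC2 genes 2 were higher, 1 was lower and 8 did not pass (median 0.09), and the lower calls numbered 3 under median-of-ratios scaling and 2 without EGFP 8-cell replicate 3. The core subunits did not pass as deposited: Ezh2 stood at 0.11 (limma, adjusted p = 0.622), Eed at 0.29 (limma, adjusted p = 0.165) and Suz12 at -0.20 (limma, adjusted p = 0.155). Ezh2 turned to -0.18 under median-of-ratios scaling, where Suz12 passed as lower (-0.50). The accessory genes Epop (1.87) and Jarid2 (1.00) rose and Aebp2 (-0.80) fell, the last not with p150DN replicate 1 only (limma, adjusted p = 0.064). Of 12 MuvB and DREAM genes 2 were higher, 1 was lower and 9 did not pass (median 0.30). Lin37 rose from 6.45 to 20.9 FPKM (1.54), Mybl2 from 51.8 to 72.8 FPKM (0.49), and Lin52 fell (-0.82). The Mybl2 call was lost under median-of-ratios scaling (0.20; limma, adjusted p = 0.370), and the Lin52 call without a low-value filter (limma, adjusted p = 0.074). Each also missed the threshold in several fits that left out 1 library.

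The products that CAF-1 deposits come from the replication-coupled H3 and H4 genes. Of 50 symbols listed for them, 24 were found in the expression table, and only these are described. Of these 24 tested genes 0 were higher and 8 lower in p150DN embryos (limma, adjusted p below 0.05), with a median of -0.62. Their summed level was 2810, 2144 and 2708 FPKM in EGFP 8-cell, 2367, 1610 and 1288 FPKM in p150DN and 2827 and 3027 FPKM in blastocyst replicates. p150DN replicate 1 overlapped with the EGFP 8-cell libraries, and replicates 2 and 3, the libraries that detected the most genes, lay below them. With p150DN replicate 1 only, 1 gene was lower and 1 higher, and without it 18 were lower. The count was 13 under median-of-ratios scaling and 5 without EGFP 8-cell replicate 1. Hist1h4n fell from 108 to 46.2 FPKM and H3c6 from 152 to 78.2 FPKM. Neither passed with p150DN replicate 1 only (-0.77 and -0.51; limma, adjusted p = 0.081 and 0.176), and H3c6 missed the threshold without EGFP 8-cell replicate 1 (limma, adjusted p = 0.053). These genes are near-identical copies whose reads can be split among them, so single genes are uncertain.

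Between the EGFP stages the same lists are read against 42.6% higher, 24.9% lower and a median of 0.28. The docking list had 9 of 17 higher and 3 lower (median 0.59), with Cbx1 at 61.2 against 7.67 FPKM (2.84), Rfc2 at 45.7 against 13.7 FPKM (1.67) and Pcna at 62.3 against 37.7 FPKM (0.71; limma, adjusted p = 0.00109). Rfc1 (-0.95) and Cbx3 (-0.74) fell. The other chaperones had 6 of 19 higher and 10 lower (median -0.48): Asf1a (1.24) and the FACT subunit gene Ssrp1 (1.03) rose, and Ubn1 (-1.29) and Supt6 (-1.28) fell. Hat1 rose from 64.2 to 263 FPKM (2.02; limma, adjusted p = 2.0e-05) in a list with 4 of 8 higher and 2 lower (median 0.26). The higher chaperone calls numbered 3 under median-of-ratios scaling, under quantile normalization and without blastocyst replicate 2.

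NuRD genes had 4 of 12 tested higher and 5 lower between the stages (median -0.05). Hdac2 rose to 136 FPKM (1.16) while Hdac1 fell from 142 to 99.3 FPKM (-0.52; limma, adjusted p = 0.00415), and Cdk2ap1 (-1.92) and Gatad2b (-1.75) fell. SIN3 had 6 of 15 higher and 5 lower (median 0.18), PRC2 5 of 11 and 4 (median -0.03), MuvB and DREAM 5 of 12 and 2 (median 0.31). Sin3b (1.15), Epop (2.58), Jarid2 (1.44) and Lin37 (1.79) rose, and Ing1 (-1.43), Suds3 (-1.31), Phf1 (-1.24) and Lin52 (-1.54) fell. The NuRD list had 2 higher calls under quantile normalization and with a filter of 5 FPKM, and the PRC2 list 3 under median-of-ratios scaling. Without blastocyst replicate 2 the higher calls numbered 1 for NuRD and 3 each for SIN3 and PRC2, and without replicate 1 they numbered 3 each for PRC2 and MuvB. The replication-coupled histone list had 6 of 24 higher and 1 lower (median 0.23), and 3 higher and 0 lower without either blastocyst replicate. It had 2 higher and 4 lower under median-of-ratios scaling, 2 higher and 0 lower with all 8 libraries in 1 fit, 4 lower without EGFP 8-cell replicate 2 and 0 lower without EGFP 8-cell replicate 1.

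**Figure D5:**
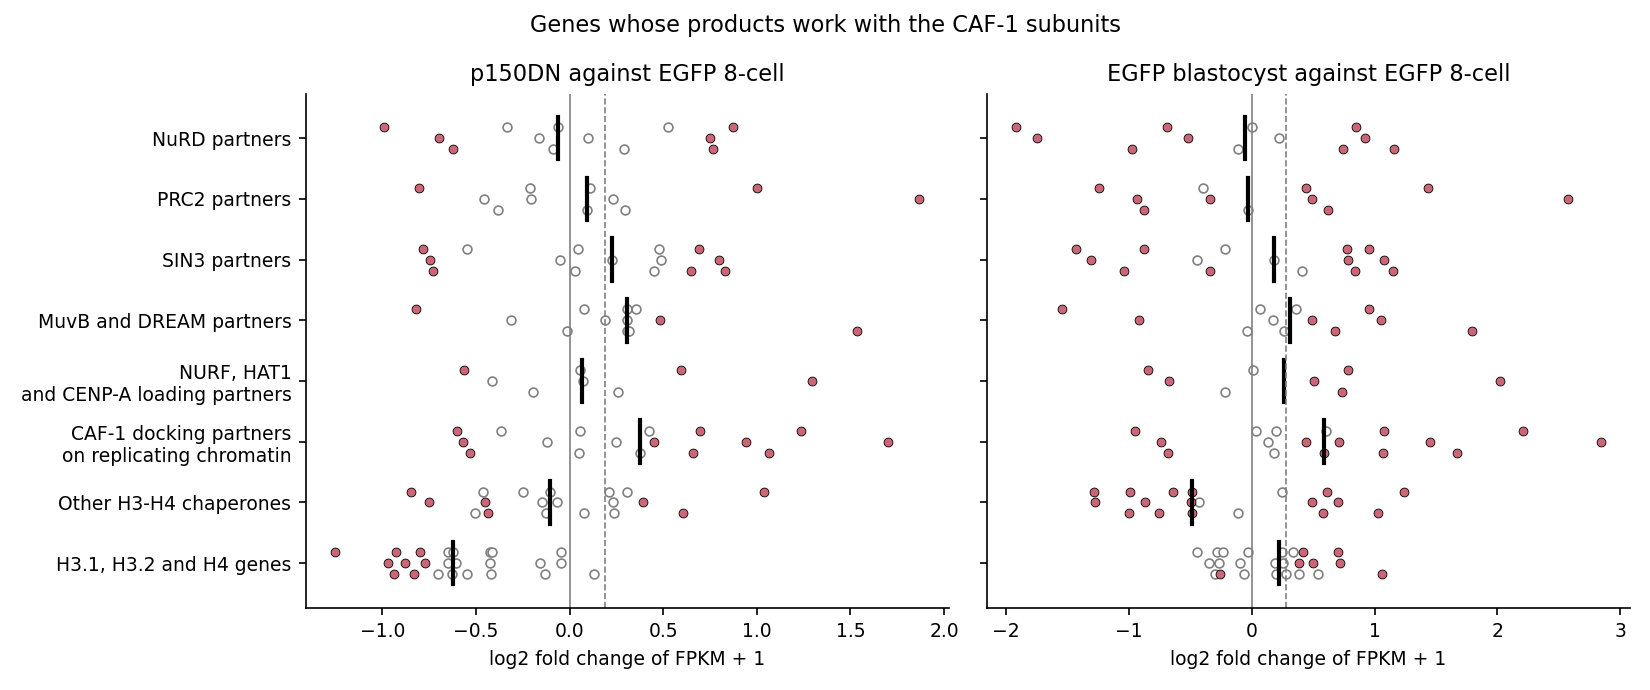
Log2 fold change of FPKM + 1 (x axis) of each tested gene in the 8 lists of genes whose products work with the CAF-1 subunits (y axis), in both comparisons. Filled points passed limma at adjusted p below 0.05, short bars are list medians, the solid line is 0 and the dashed line the median of all genes; in p150DN the docking list has the highest median (0.38) and the histone list the lowest (-0.62).

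Markers of stage moved with these results, and their part in them was not tested. In p150DN embryos 8 of 11 tested blastocyst markers were higher and 1 lower, and 0 of 10 maternal markers were higher and 3 lower. Between the stages the blastocyst markers had 9 of 12 higher and 1 lower, and all 10 maternal markers were lower. The summed maternal level was 118 to 142 FPKM in EGFP 8-cell, 57.5, 117 and 97.2 FPKM in p150DN replicates 1, 2 and 3, and 17.7 to 18.5 FPKM in blastocyst libraries. p150DN replicate 1 had the lowest maternal sum and the lowest Chaf1a and Rbbp7 of its group. The summed cumulus and granulosa level, mostly Amhr2, was 18.9 to 24.4 FPKM in EGFP 8-cell, 6.20 to 14.5 FPKM in p150DN and 2.36 to 2.67 FPKM in blastocyst libraries. Amhr2 alone was at 17.5 to 23.7 FPKM in EGFP 8-cell and 4.95 to 11.8 FPKM in p150DN libraries. The sum therefore does not describe the other markers, of which more were above 0 in p150DN replicates 2 and 3 than in any EGFP 8-cell library. None of these other markers reached 1 FPKM. Among all genes, 20465 and 21282 were above 0 in those replicates, against 17310 to 18402 in EGFP 8-cell libraries.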

How the data were processed

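RNA-seq was measured in 8 libraries of mouse embryos. The other 65 of 73 samples (ChIP-seq, inputs and CUT&RUN) were not analysed here. Libraries were prepared from total RNA by the SMART-seq stranded method, as the labels' protocols state. The authors deposited 1 column of FPKM values for each library, per the file headers. The submitters' processing notes name Trim Galore, HISAT2, Bowtie2, SAMtools, featureCounts and mm10, without versions or roles. Annotation and strand setting were not given in the sources used here. FPKM fixes the total of each library, which hides any change in an embryo's total RNA.

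Columns naming the 8-cell stage without p150DN were assigned to EGFP 8-cell libraries, the sole other 8-cell RNA-seq group in the labels. Gene length and counted fragments were recovered from the FPKM values as whole numbers. limma 3.58.1 (R 4.3.3; lmFit, eBayes with trend, two-sided) was run on log2(FPKM + 1) with the compared groups only, keeping genes that reached 1 FPKM in 3 or more libraries (p150DN) or in 2 or more (stages). A fold change on this scale understates the change of low genes. Benjamini-Hochberg adjusted p-values over all tested genes were called below 0.05. Ratios were tested with exact permutation tests (scipy 1.17.1). The fit was tested on simulated data. Of the symbols, 24920 (98.8%) matched the RefSeq gene table.

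The members and lists were chosen with earlier results of these data known. The named genes were the 4 subunit genes, 10 partners whatever their test (Pcna, Hdac1, Hdac2, Ezh2, Eed, Suz12, Hat1, Cbx5, Asf1a and Asf1b), up to 2 called genes per list and direction with the largest change and a mean of at least 5 FPKM, the 3 genes most correlated with each subunit gene, and overlapping or adjacent genes. Alternatives were pseudocounts and filters, median-of-ratios scaling, quantile normalization, all libraries in 1 fit, the replicate block and leaving out each library.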

Additional observations from a re-analysis of the deposited data

How the results depend on the processing

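Of 152 values of the subunit genes and ratios under the alternatives, 142 were kept, 4 lost the call, 1 gained it and 5 turned. Kept values had the same direction and, for genes, the same side of the threshold. For the ratios only the direction was compared, because no ratio could pass at these group sizes. The filters and the fit of all 8 libraries left each gene's log2 fold change as it was, so only its call could move. The 142 therefore include values that could not have changed, and their share is no measure of stability. Under median-of-ratios scaling in p150DN embryos Chaf1b turned to -0.13 and Rbbp4 to -0.087, and Rbbp7 did not pass (0.28; limma, adjusted p = 0.178). Between the stages that scaling turned Chaf1b to -0.12, left Rbbp4 short of the threshold (0.25) and brought Chaf1a past it (-0.32), and quantile normalization turned Chaf1b to -0.090. With p150DN replicate 1 as the only p150DN library, chosen after seeing the data, Rbbp7 was at 0.31 (limma, adjusted p = 0.154) and 2314 genes changed; the lone library is then assumed to vary like the EGFP group. The causes were not tested. Leaving out 1 library gave 2238 to 3553 changed genes in p150DN and 5459 to 8144 between the stages, Rbbp7 changes of 0.46 to 0.71 in p150DN, and log2 differences of the Rbbp7 to Rbbp4 ratio between the stages of -0.026 to 0.29.

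Of 1006 values of other named genes, 908 were kept, 79 lost the call, 8 gained it and 11 turned. In p150DN Ezh2 turned to -0.18 and Ubxn6 to -0.23 under median-of-ratios scaling, Ubxn6 to -0.058 and Zbtb8os to -0.032 under quantile normalization, Ubxn6 to -0.10 without EGFP 8-cell replicate 2, and Ezh2 to -0.00090 and Ubxn6 to -0.0017 without p150DN replicate 1; leaving out 1 library gave Ubxn6 -0.10 to 0.13. Between the stages Ubxn6 turned to -0.13 under median-of-ratios scaling, to -0.080 under quantile normalization and to -0.061 without EGFP 8-cell replicate 2 (-0.061 to 0.17 without 1 library), and Ezh2 to 0.016 without blastocyst replicate 1 (-0.077 to 0.016 without 1 library). Of 416 list counts 69 moved by more than 1.5 times.

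Deviations of same-numbered libraries had correlations of 0.06, 0.10 and 0.03 in p150DN and of -0.03 and -0.02 between the stages. Different-numbered libraries had -0.12 to 0.08 in p150DN. With 2 blastocyst libraries the deviations of 1 mirror those of the other. So few and small values cannot decide whether the numbers pair the libraries. With the replicate number as a block 4081 genes changed in p150DN and 7861 between the stages, Rbbp7 in p150DN had a limma adjusted p of 0.0189, and no subunit gene changed its call. Of the other named genes, Txlng passed as lower in p150DN (limma, adjusted p = 0.0480), and Suz12, Cbx5 and H4c12 missed the threshold between the stages (limma, adjusted p = 0.0549, 0.0515 and 0.140). Not every library correlated best with its own number. Depth limits Chaf1b most, at 704 to 1003 fragments per library. Groups of 2 or 3 libraries are too small for a test of outlying libraries.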
